A study of Mus musculus with 6 samples.

Results

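A set of 10 genes for calcium-binding proteins were followed through the cells of the mouse retina: Calb1, Calb2, Pvalb, Cabp1, Cabp2, Cabp5, Scgn, Necab1, Necab2 and Hpca. They are 10 of the 52636 genes in the count table and were taken by name, with earlier results of these data known. The 6 retinas came from 12-month-old male C57BL/6J mice, 3 of them wt/wt and 3 ko/ko for Dram2. The knockout was constitutive, made by removing exon 4 of Dram2 with CRISPR, so that every cell of a ko/ko mouse carried it, and Dram2 encodes a lysosomal membrane protein linked to autophagy. Replicates 1 and 2 of both genotypes formed batch 2 in the labels and replicate 3 of both formed batch 1, so each batch held both genotypes.

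These proteins hold EF-hands, a helix-loop-helix fold that binds calcium. Some act mainly as buffers that shape the calcium signal in a neuron, such as calbindin (Calb1), calretinin (Calb2) and parvalbumin (Pvalb). Others change shape on binding calcium and act on ion channels or on membrane traffic, such as the calmodulin-like proteins Cabp1, Cabp2 and Cabp5, hippocalcin (Hpca) and secretagogin (Scgn), while the N-terminal EF-hand proteins Necab1 and Necab2 are less well understood. In the retina, antibodies to several of them are used to tell neurons of the inner layers apart: bipolar cells, which carry the photoreceptor signal inwards, amacrine cells, which act mostly by inhibition, horizontal cells and ganglion cells.

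The deposited annotation gave 45746 of 46375 cells one of 5 cell types. Interneurons numbered 2083, with 160 to 610 per retina and a median of 1844 unique molecular identifiers (UMIs, each a counted RNA molecule) per cell, and photoreceptors numbered 42359 with a median of 428 UMIs. The other types were 942 glia, 246 mesenchymal cells and 116 cells of the retinal pigment epithelium (RPE). The total per retina ran from 3463728 to 6563762 UMIs. The summed level of 5 interneuron markers (Otx2, Snhg11, Meg3, Snap25 and Syt1) was 3788 to 7236 CPM (a gene's UMIs per 1000000 UMIs of the same cells of a retina) in interneurons and 835 to 1421 in photoreceptors. Markers of bipolar, amacrine, horizontal and ganglion cells were all found in cells with the interneuron label, so it is a broad class here. The label check on Dram2 itself was not possible, since the 3′ reads do not show whether exon 4 was present: its UMIs over all cells of replicates 1, 2 and 3 were 109, 140 and 317 in wt/wt and 95, 149 and 351 in ko/ko.

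The genes lie at separate places in GRCm38. Calb1 (ENSMUSG00000028222) lies at chr4:15881264-15908064 on the plus strand, Calb2 (ENSMUSG00000003657) at chr8:110137502-110168210 on the minus strand, and Pvalb (ENSMUSG00000005716) at chr15:78191114-78206400 on the minus strand. Cabp1 (ENSMUSG00000029544) lies at chr5:115168689-115194381 on the minus strand, Cabp2 (ENSMUSG00000024857) at chr19:4081578-4087340 on the plus strand, and Cabp5 (ENSMUSG00000005649) at chr7:13398132-13408887 on the plus strand. Scgn (ENSMUSG00000021337) lies at chr13:23953456-23991214, Necab1 (ENSMUSG00000040536) at chr4:14952245-15149794 and Hpca (ENSMUSG00000028785) at chr4:129111570-129122036, all on the minus strand. Necab2 (ENSMUSG00000031837) lies at chr8:119446719-119472640 on the plus strand. An exon of Scgn, Necab1 and Hpca is overlapped by a gene on the opposite strand (Gm11339, Gm11837 and Tmem54), and since the sources used here do not state strand-aware counting, the levels of these 3 members may hold some reads of those neighbours.

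The promoters of Cabp5 and Scgn are shown because these members were both detected in many bipolar cells and differ in a short motif. RefSeq windows of 250 bases before a transcript start (GRCm38.p6) were on hand for 7 of the 10 members, in 12 windows; Calb1, Calb2 and Necab1 had none in the table. The motif TAATCC was searched on both strands and is the core read by the homeodomain factors Crx and Otx2, and capitals mark it in the sequences, which run 5′ to 3′ on the strand of the gene. The first spans chr7:13397905-13398154 on the plus strand and the second chr13:23991215-23991464 on the minus strand.
Cabp5: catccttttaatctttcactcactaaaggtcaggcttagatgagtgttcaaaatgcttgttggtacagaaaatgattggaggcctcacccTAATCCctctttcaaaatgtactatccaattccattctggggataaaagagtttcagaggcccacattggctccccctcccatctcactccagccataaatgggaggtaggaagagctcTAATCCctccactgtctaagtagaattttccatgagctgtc
Scgn: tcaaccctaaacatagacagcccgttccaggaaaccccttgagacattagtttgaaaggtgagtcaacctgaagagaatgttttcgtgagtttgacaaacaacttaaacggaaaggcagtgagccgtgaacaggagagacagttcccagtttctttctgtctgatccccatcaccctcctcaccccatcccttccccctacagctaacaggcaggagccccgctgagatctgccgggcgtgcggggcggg
Cabp5 held the motif 160 and 41 bases before the start. One of the 2 Cabp2 windows held it 136 and 124 bases before the start, and 1 of the 3 Hpca windows held it 66 bases before the start. No window of Scgn, Pvalb, Cabp1 or Necab2 held it. Among all 32851 windows of this length, 6.25% held TAATCC. The palindrome TAATTA, bound by many homeodomain proteins, was in 4.84% of all windows and in none of the members' windows.

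Each of the 10 genes was detected in interneurons, and 1864 of the 2083 interneurons (89.5%) held a UMI of at least 1 member. Cells with 2 members were the most frequent, at 817, next to 549 cells with 1 member, 383 with 3, 98 with 4, 16 with 5 and 1 with 6. Interneurons were the cell type with the highest mean level for 9 members, and glia for Necab2. For Pvalb this rested on 25 UMIs in 2 cells. The share of all genes with their highest mean in interneurons was not counted.

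Scgn, secretagogin, was present at 1141, 1039 and 489 CPM in the interneurons of wt/wt replicates 1, 2 and 3 and at 818, 876 and 525 CPM in those of ko/ko. In photoreceptors its level was 7.26 to 12.0 CPM over the 6 retinas. Cabp5, a calmodulin-like protein of bipolar cells, stood at 804, 1022 and 507 CPM in wt/wt interneurons and at 716, 904 and 477 CPM in ko/ko interneurons. The retinas of batch 1 were the lowest for both genes in each genotype. Photoreceptors held 10.4 to 19.6 CPM of Cabp5, so that the interneurons of every retina lay far above the photoreceptors of every retina.

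Cabp1, also called caldendrin in its longer form, was at 266, 240 and 395 CPM in wt/wt interneurons and at 244, 222 and 389 CPM in ko/ko interneurons. Hpca, a neuronal calcium sensor of the recoverin family, was at 99.6, 98.6 and 156 CPM in wt/wt and at 57.0, 92.8 and 144 CPM in ko/ko. For both genes the batch 1 retina was the highest of each genotype. Cabp2, a calmodulin-like regulator of calcium channels, was at 128, 86.6 and 96.7 CPM in wt/wt and at 171, 58.3 and 104 CPM in ko/ko, without an order by batch or genotype.

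Calb2, calretinin, varied most from retina to retina among the members with more than 1000 UMIs. Its interneuron level was 38.0, 111 and 489 CPM in wt/wt and 8.14, 54.0 and 513 CPM in ko/ko, so the batch 1 retinas lay above the other 4 without overlap. Calb1, calbindin, was at 0, 16.8 and 59.7 CPM in wt/wt and at 16.3, 10.8 and 102 CPM in ko/ko, again highest in batch 1. Necab1 was at 33.2, 48.1 and 52.6 CPM in wt/wt and at 4.07, 25.9 and 51.1 CPM in ko/ko. The genotypes overlapped for Calb1, Calb2 and Necab1, although Necab1 was lower in ko/ko in all 3 same-numbered pairs. The labels do not say that these pairs share more than a batch.

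Pvalb, parvalbumin, was found in 2 interneurons only, with 25 UMIs. A single cell of ko/ko replicate 3 held 24 of them, among 11121 UMIs. The same cell carried 198 UMIs of Calb2, 41 of Sncg, 39 of Thy1, 34 of Nefl and 10 of Pou4f1, which are ganglion cell genes, and 0 of Gad1. The Pvalb values per retina (0 in all 3 wt/wt retinas, and 4.07, 0 and 18.3 CPM in ko/ko) therefore describe 2 cells and not a population.

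Necab2 was the member with another pattern. In glia it was at 80.2, 114 and 81.6 CPM in wt/wt and at 134, 89.4 and 66.0 CPM in ko/ko, with 134 UMIs in 116 of 942 cells. In interneurons it gave 19 UMIs in 16 cells, at 4.74, 0 and 7.82 CPM in wt/wt and 0, 0 and 4.57 CPM in ko/ko, and in photoreceptors 0.56 to 2.79 CPM. The lowest glial value thus lay above the highest value in either neuronal type.

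**Figure D1:**
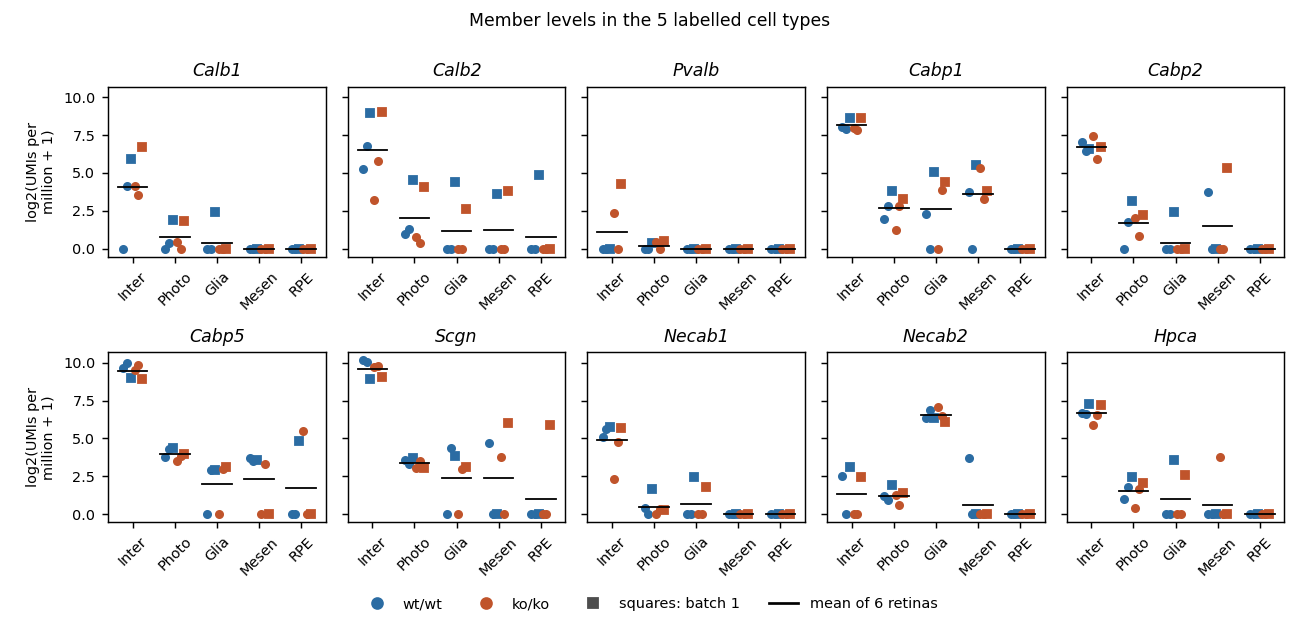
Level of each member in the 5 cell types, as log2(CPM + 1) on the y axis, with 1 point per retina (blue for wt/wt, orange for ko/ko, squares for batch 1 and circles for batch 2) and the mean of the 6 as a line. In all, 9 members have their highest mean in interneurons (Pvalb on 25 UMIs in 2 cells), and Necab2 has it in glia, where it ranged from 66.0 to 134 CPM.

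The types were compared in 1 edgeR quasi-likelihood fit over 30 sums (5 types in each of 6 retinas, retina as a block), with Benjamini-Hochberg adjustment over 6290 tested genes. The authors clustered the same cells on variable genes of these counts, and whether members were among those genes is not given in the sources used here, so these p-values may not be independent of the labels. The filter on low counts also passed a gene that was high in 1 type only, and in the class fits below in 1 class only. The differences of such members are therefore descriptions of their levels. Types differ in most genes, and 94.3% of those tested passed an adjusted p under 0.05 across the 5 types, 66.0% between interneurons and photoreceptors, 59.3% between interneurons and glia and 69.0% between photoreceptors and glia. Calb1, Calb2, Pvalb and Necab1 did not pass the filter and were not tested. Calb2 was not scarce in total, with 1450 UMIs in interneurons, but 1361 of these were in batch 1. On the log2 scale, interneurons exceeded photoreceptors by 6.04 (SE 0.15, adjusted p = 2.1e-47) for Scgn. The difference was 5.25 (SE 0.13) for Cabp5, 5.19 (SE 0.16) for Cabp1, 5.19 (SE 0.22) for Hpca and 4.77 (SE 0.26) for Cabp2. For Necab2 it was 1.16 (SE 0.50, adjusted p = 0.035), with 19 UMIs in 16 interneurons. Over 11 alternative settings the Necab2 value ran from 0.056 to 1.26, and 6 of them lost the call.

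Against glia, the log2 difference was 6.87 (SE 0.26) for Cabp5, 6.31 (SE 0.26) for Scgn, 6.21 (SE 0.58) for Cabp2, 4.69 (SE 0.37) for Hpca and 4.27 (SE 0.25) for Cabp1, all higher in interneurons. Necab2 was lower in interneurons than in glia, at -4.49 (SE 0.38, adjusted p = 3.8e-17), and lower in photoreceptors than in glia, at -5.65 (SE 0.33). In the fit without a filter on low counts, interneurons exceeded photoreceptors by 4.56 (SE 0.29) for Calb1, 4.55 (SE 0.18) for Calb2 and 5.48 (SE 0.30) for Necab1.

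The depth of the types differed, so cells were also thinned to 1000 UMIs each, which kept 1829 interneurons (median 1968 UMIs before thinning), 2775 photoreceptors (median 1305) and 770 glia (median 1808). It left out 39584 photoreceptors, 254 interneurons and 172 glia, so the photoreceptor shares describe a small, deep part of that type. Of the photoreceptors kept, 844 came from wt/wt replicate 3 and 855 from ko/ko replicate 3, the batch 1 retinas. Scgn was then detected in 40.7% of interneurons (95% Wilson interval 38.4 to 42.9) and in 0.973% of photoreceptors. Cabp5 was detected in 40.0% of interneurons (37.7 to 42.2) and in 2.34% of photoreceptors. Cabp1 was detected in 23.7% (21.8 to 25.7), next to 0.829% of photoreceptors. Without thinning, the interneuron shares were 47.8% for Scgn, 45.9% for Cabp5 and 37.3% for Cabp1.

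Hpca was detected in 9.57% of thinned interneurons (8.30 to 11.0), Cabp2 in 8.42% (7.23 to 9.78) and Calb2 in 8.20% (7.03 to 9.55). Necab1 reached 3.06% (2.37 to 3.95) and Calb1 1.91% (1.38 to 2.65), while 0 of 2775 photoreceptors held Necab1, which allows a share of cells with a UMI of up to 0.108%. Necab2 was detected in 8.83% of thinned glia, against 0.219% of interneurons and 0.144% of photoreceptors. In thinned glia the shares were 1.17% for Scgn, 0.649% for Cabp5 and 0.779% for Cabp1. The part of free RNA in the low shares of photoreceptors and glia was not tested. The photoreceptor level of Calb2 moved with that of interneurons: it was 0.97, 1.52 and 22.4 CPM in wt/wt and 0.69, 0.28 and 16.0 CPM in ko/ko, high in batch 1 in both.

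Interneurons were then divided by a UMI of Prkca, Grik1 or Gad1. Prkca encodes a protein kinase C of rod bipolar cells, Grik1 a kainate receptor subunit of OFF cone bipolar cells and Gad1 the enzyme that makes GABA in amacrine cells. Exactly 1 of the 3 was found in 783 interneurons, 334 with Prkca, 418 with Grik1 and 31 with Gad1, whereas 1254 held none and 46 held 2. Gad1 cells came almost entirely from batch 1, with 17 in wt/wt replicate 3, 13 in ko/ko replicate 3 and 1 elsewhere. Prkca did not mark rod bipolar cells cleanly in these data: its level in interneurons and photoreceptors differed by -0.14 (SE 0.10, adjusted p = 0.23) on the log2 scale.

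Grik1 cells were rich in Scgn and Cabp5. Scgn stood at 1688, 1807 and 790 CPM in the Grik1 cells of wt/wt and at 798, 1478 and 1126 CPM in those of ko/ko, and at 144 to 400 CPM in Prkca cells. Cabp5 stood at 1116, 1504 and 1099 CPM in the Grik1 cells of wt/wt and at 1048, 1244 and 982 CPM in those of ko/ko, and at 102 to 644 CPM in Prkca cells. The ranges of the 2 classes did not overlap for either gene. Calb2 went the other way, with 0 to 1899 CPM in Prkca cells, the batch 1 retinas at 1899 and 1055, and 0 to 77.3 CPM in Grik1 cells.

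The class fit held 14 of 18 possible sums of at least 10 cells, tested 3444 genes and called 26.8% of them across the 3 classes, with 20.2% between Prkca and Grik1 cells, 18.1% between Grik1 and Gad1 cells and 10.9% between Prkca and Gad1 cells. Prkca cells minus Grik1 cells gave, on the log2 scale, -2.62 (SE 0.17, adjusted p = 2.9e-14) for Scgn and -1.57 (SE 0.19, adjusted p = 7.8e-08) for Cabp5. Calb2 was higher in Prkca cells by 4.59 (SE 0.34), but 3 batch 1 cells with 121, 141 and 127 UMIs of ganglion cell markers held 236, 198 and 135 of the 839 Calb2 UMIs of Prkca cells. Without cells that held more ganglion list UMIs than UMIs of each of the rod bipolar, OFF cone bipolar and amacrine lists, an alternative added after seeing the data, the Calb2 value was 3.14 (SE 0.27). Prkca cells were also higher for Necab1 by 3.89 (SE 0.53), Hpca by 2.78 (SE 0.29) and Cabp1 by 1.01 (SE 0.19), all past the adjusted threshold. The Necab1 value does not describe rod bipolar cells. In the list classes given below, 184 of the 188 Necab1 UMIs of interneurons lay in amacrine list cells and 0 in rod bipolar list cells. Grik1 cells exceeded Gad1 cells by 6.62 (SE 0.62) for Scgn and 6.47 (SE 0.78) for Cabp5. The Gad1 sums rest on 2 retinas and 30 cells, and of their 238 Calb2 UMIs 237 came from 2 cells, so the Calb2 differences from Gad1 cells (-0.53, SE 0.27, for Prkca and -5.12, SE 0.37, for Grik1) describe little more than those cells.

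Co-detection in single cells, thinned to 1000 UMIs, showed the same for Grik1. Cabp5 was found in 214 of 329 Grik1 cells (65.0%) and in 34.5% of cells without Grik1. The share with Cabp5 was 58.1% of Grik1 cells in batch 1 and 71.3% in batch 2, against 27.4% and 43.6% of the cells without Grik1. Scgn was found in 59.9% of Grik1 cells and in 36.5% of the others. For Prkca, Scgn was detected in 13.2% of cells with it and 44.9% of cells without it, and Cabp5 in 35.1% and 40.7%. Neither Scgn nor Cabp5 was detected in the 32 Gad1 cells, which allows a share of cells with a UMI of up to 9.38% at this depth.

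Calb2 was detected in 0.912% of Grik1 cells and 9.80% of the others, and in 9.09% of Prkca cells and 8.07% of the others. Hpca was detected in 1.82% of Grik1 cells and 11.3% of the others. Cabp2 was found less often in cells of either bipolar marker than outside it: in 3.72% of Prkca cells against 9.14%, and in 2.74% of Grik1 cells against 9.67%. Calb1 was detected in 0 of 242 Prkca cells, 0 of 329 Grik1 cells and 1 of 32 Gad1 cells. These shares are descriptions of cells that share libraries, and no test was made over cells.

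**Figure D2:**
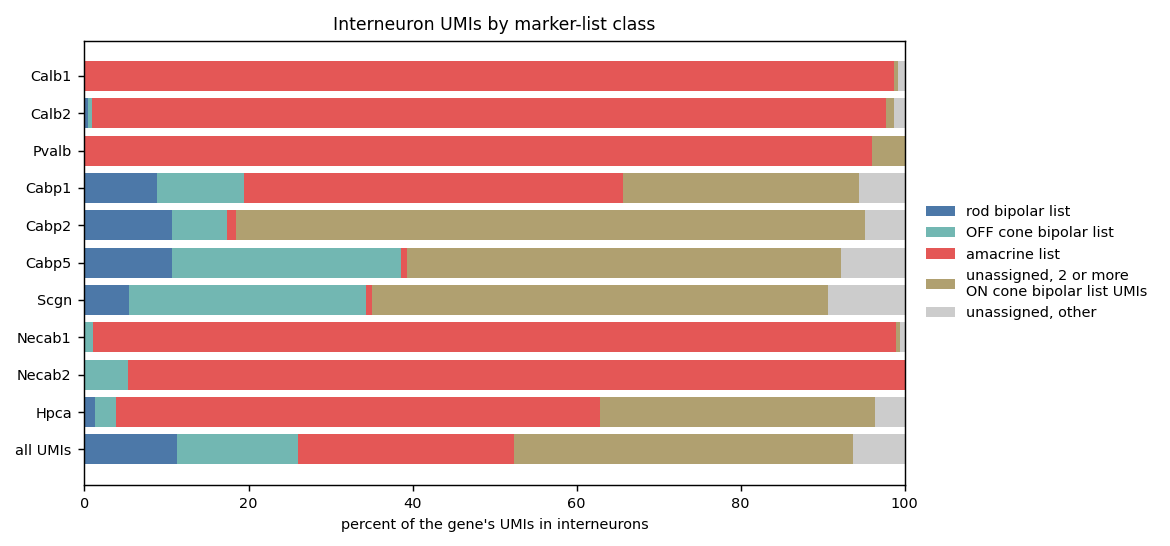
Percent of each member's interneuron UMIs (x axis, stacked to 100) that lay in the rod bipolar, OFF cone bipolar and amacrine list classes and in the cells left unassigned, with and without 2 ON bipolar list UMIs, and below them the same for all UMIs. The amacrine list class holds 98.7% of Calb1 UMIs and 0.741% of Cabp5 UMIs, next to 26.3% of all UMIs.

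Because Prkca alone did not separate rod bipolar cells, cells were also classed by marker lists that hold no member: rod bipolar (Prkca, Sebox, Vstm2b, Car8), OFF cone bipolar (Grik1, Tacr3, Neto1, Erbb4) and amacrine (Gad1, Gad2, Slc6a9, Tfap2a, Tfap2b, Pax6, C1ql2). A cell went to the list with the most UMIs if it had at least 2. This gave 221 rod bipolar list cells, 314 OFF cone bipolar list cells and 341 amacrine list cells. Another 972 cells held at least 2 UMIs of an ON bipolar list (Isl1, Grm6, Trpm1, Gng13), and the other 235 held fewer. This list does not separate ON from OFF bipolar cells cleanly: in the 972 cells Gng13 gave 74.1% of its UMIs, Grm6 was detected in 486 of them and Grik1 in 68. The amacrine list class is deeper, with a median of 3223 UMIs against 2057 and 1792 in the bipolar classes, and it takes in horizontal and ganglion cells, which share Pax6 or Tfap2b.

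Several members were almost entirely in the amacrine list class, which held 16.4% of interneurons and 26.3% of their UMIs. It held 231 of 234 Calb1 UMIs (98.7%), 184 of 188 Necab1 UMIs (97.9%), 1402 of 1450 Calb2 UMIs (96.7%) and 18 of 19 Necab2 UMIs. Of the 25 Pvalb UMIs, the 24 in this class are those of the 1 cell with ganglion cell genes described above. The class shares of Calb1 and Calb2 also include cells of other kinds. In this class, 569 Calb2 UMIs lay in the 3 cells with the ganglion list gene Rbpms. Another 70 UMIs, of Calb1, lay in the 2 cells with the horizontal list gene Lhx1. Hpca and Cabp1 were shared between classes, with 59.0% and 46.1% of their UMIs in amacrine list cells. Scgn, Cabp5 and Cabp2 were nearly missing from it, at 0.759%, 0.741% and 1.16%. No Calb1 UMI was found in the 221 rod bipolar list cells or the 314 OFF cone bipolar list cells, which allows shares of cells with a UMI of up to 1.36% and 0.955%.

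Cabp2 was held mostly by the ON bipolar list cells left by the other 3 lists, with 331 of 432 UMIs (76.6%). The same cells held 55.6% of Scgn and 52.9% of Cabp5 UMIs, next to 41.3% of all interneuron UMIs. OFF cone bipolar list cells held Cabp5 at 1166, 1719 and 1114 CPM in wt/wt and at 804, 1239 and 1156 CPM in ko/ko. Rod bipolar list cells held it at 637, 771 and 468 CPM in wt/wt and at 517, 629 and 632 CPM in ko/ko, below every OFF value.

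With list classes, 54.5% of 1832 tested genes differed in edgeR's quasi-likelihood test across the classes, 25.4% between rod and OFF cone bipolar classes, 45.2% between rod bipolar and amacrine classes and 45.4% between OFF cone bipolar and amacrine classes. The rod bipolar minus OFF cone bipolar difference was -2.01 (SE 0.18, log2) for Scgn and -0.96 (SE 0.13) for Cabp5, both called lower in the rod bipolar class, as with single markers. With the class rule, Hpca in the rod bipolar class changed direction against both other classes, while Cabp1 did so only against the amacrine class. Against the OFF cone bipolar class, the rod bipolar class gave -0.50 (SE 0.64) for Hpca, 0.21 (SE 0.23) for Cabp1 and 0.04 (SE 0.72) for Calb2, where Prkca cells against Grik1 cells had given positive calls. Against the amacrine class, it gave -1.28 (SE 0.20) for Cabp1 and -4.31 (SE 0.37) for Hpca. Of the 341 amacrine list cells, 122 held Prkca UMIs, so the Prkca class contained cells of this kind.

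The difference from the amacrine class for Calb2 was -6.21 (SE 0.29) in the rod bipolar class and -6.26 (SE 0.26) in the OFF cone bipolar class. The amacrine class sums of Calb2 include 569 UMIs from the 3 cells with Rbpms. Scgn was higher in the rod and OFF cone bipolar classes by 3.87 (SE 0.35) and 5.88 (SE 0.28), and Cabp5 by 4.94 (SE 0.25) and 5.89 (SE 0.22). The OFF cone bipolar minus amacrine difference was -1.49 (SE 0.20) for Cabp1 and -3.81 (SE 0.31) for Hpca. This fit left out the ON bipolar list cells that the 3 lists did not take, which held 184 of 549 Hpca UMIs (33.5%) in 140 cells.

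**Figure D3:**
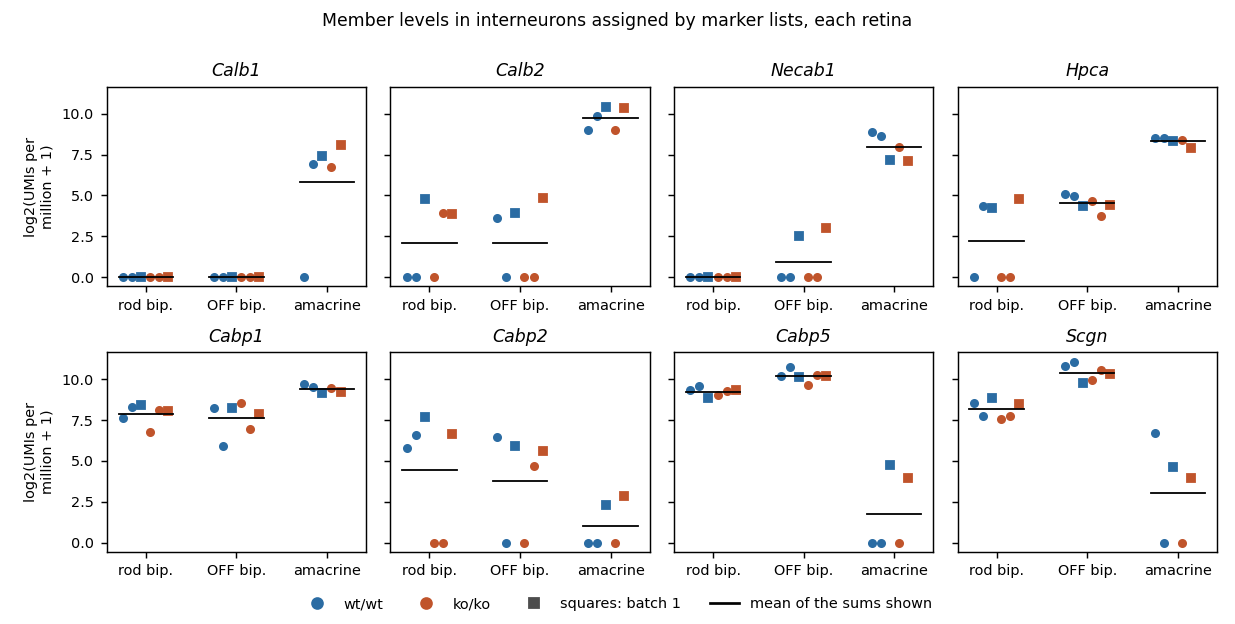
Level of 8 members in the marker-list classes of interneurons, as log2(CPM + 1) on the y axis, with 1 point per retina with at least 10 such cells (blue for wt/wt, orange for ko/ko, squares for batch 1) and their mean as a line. Calb1, Calb2 and Necab1 are high in the amacrine list class, and Cabp5 and Scgn in the bipolar classes.

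Within the amacrine list class, the members divided the cells further. Calb1 was found in 58 of 132 cells with Tfap2b (43.9%) and in 22 of 209 without it (10.5%), whereas Hpca was found in 13 of the 132 (9.85%) and in 132 of the 209 (63.2%). Calb2 was found in 202 of 277 cells with Slc6a9 (72.9%), the glycine transporter of glycinergic amacrine cells, and in 18 of 64 without it (28.1%). It was found in 3 of 44 cells with Gad1 (6.82%) and in 217 of 297 without it (73.1%). Calb1 and Calb2 shared cells: 68 of 83 cells with Calb1 held Calb2 (81.9%), against 192 of 2000 without Calb1 (9.60%). The cells with Calb1 had a median of 3487 UMIs and those without it 1810, so depth moved with this overlap. Among cells thinned to 1000 UMIs, Calb2 was found in 15 of 35 cells with Calb1 (42.9%) and in 135 of 1794 without it (7.53%).

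A few cells carried much of the Calb1 and Calb2 signal. The 2 cells richest in Calb1 held 44 and 26 UMIs, 29.9% of all, and came from wt/wt and ko/ko replicate 3. They carried 110 and 101 UMIs of the horizontal cell list, among them Onecut1, Onecut2 and Lhx1, and 0 and 1 UMI of Calb2. The 5 cells richest in Calb2 held 806 UMIs, 55.6% of all. Of these 5, 3 carried 121, 141 and 127 UMIs of the ganglion cell list with 236, 198 and 135 UMIs of Calb2, and the other two, with 148 and 89, carried 5 UMIs of Gad1 each. All 5 came from batch 1.

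Cabp2 and Cabp5 were rarely found in the same cell. Only 12 of 265 cells with Cabp2 held Cabp5 (4.53%), against 945 of 1818 without Cabp2 (52.0%). In the single retinas, the share with Cabp5 among Cabp2 cells was 13.9%, 4.35% and 3.70% in wt/wt and 3.85%, 0% and 2.56% in ko/ko. Among the other interneurons it was 57.1%, 68.3% and 43.7% in wt/wt and 59.0%, 63.1% and 43.0% in ko/ko, so all 6 retinas showed the same order. After thinning to 1000 UMIs, Cabp2 was detected in 5 of 731 Cabp5 cells (0.684%) and in 149 of 1098 others (13.6%). This pair was noticed in the data and is given as a description.

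The cells on either side differed in other genes. Vsx1, a homeodomain factor of some cone bipolar types, was detected in 53.8% of the 253 cells with Cabp2 and no Cabp5 and in 3.07% of the 945 cells with Cabp5 and no Cabp2. Lhx4, another homeodomain factor, was detected in 9.88% and 53.5%. Grm6, the glutamate receptor of ON bipolar cells, was detected in 60.5% and 29.2%, and Grik1 in 10.3% and 34.2%. Scgn occurred with both: in 169 of 265 Cabp2 cells (63.8%, against 45.5% of the others) and in 560 of 957 Cabp5 cells (58.5%, against 38.7%). Within single retinas the gap was wider in batch 1 than in batch 2. For Cabp2 it was 67.9% against 37.6% in wt/wt replicate 3 and 52.4% against 49.4% in ko/ko replicate 2. For Cabp5 it was 59.0% against 30.9% in wt/wt replicate 3, and the order turned in ko/ko replicate 1, with 47.5% against 52.5%.

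Genes whose level followed a member over the 2083 interneurons were ranked by Pearson r on log values centred within each retina, among 13284 genes, as a description, since cells share libraries and depth. For Cabp5 the first was Lhx4 (r = 0.43) and for Cabp2 it was Vsx1 (r = 0.35). For Scgn they were Tnnt1 (0.44), Scg2 (0.42) and Cck (0.38). Calb2 and Necab1 shared Pax6 (0.63 and 0.54) and Slc6a9 (0.60 and 0.49), and Calb1 followed Tfap2b (0.47). For Hpca they were Nhlh2 (0.41), Nfix (0.39) and Thy1 (0.37), and for Cabp1 Lamp5 (0.32) and Six3 (0.31).

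The order of the retinas by batch was tested after it had been seen, as the batch term of an edgeR fit with genotype and batch. Of 7698 genes tested in interneurons, 11.2% differed between batches, and 5 of the 7 tested members were among them: 3 were higher in batch 1, as 3.78% of all genes were, and 2 lower, as 7.47% were. On the log2 scale, batch 1 exceeded batch 2 by 3.15 (SE 0.32, adjusted p = 9.0e-06) for Calb2, 0.65 (SE 0.16, adjusted p = 0.014) for Cabp1 and 0.72 (SE 0.20, adjusted p = 0.030) for Hpca. Batch 1 was lower for Cabp5, at -0.85 (SE 0.18, adjusted p = 0.0041), and for Scgn, at -0.96 (SE 0.17, adjusted p = 0.0014). Necab1 (0.78, SE 0.33) and Cabp2 (-0.12, SE 0.28) did not pass.

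The makeup of the interneurons differed between batches too. The amacrine list summed to 1383 and 1532 CPM in the 2 retinas of batch 1 and to 97.7 to 354 CPM in the 4 of batch 2, and the ganglion list to 376 and 283 CPM against 4.07 to 74.5 CPM. Single cells of batch 1 held 121, 141 and 127 of the ganglion list UMIs. Thy1, a gene of that list, was also found in 171 of the 341 amacrine list cells. The ganglion list level is therefore no count of ganglion cells. Batch 1 supplied 55.0% of interneurons and 63.7% of their UMIs, but 93.9% of Calb2, 93.2% of Calb1, 74.5% of Hpca and 74.0% of Cabp1 UMIs, and 49.6% of Cabp5 and 47.5% of Scgn UMIs. Amacrine list cells numbered 155 of 610 interneurons in wt/wt replicate 3 and 133 of 536 in ko/ko replicate 3. In batch 2 they were 14 of 260 and 18 of 241 in wt/wt and 3 of 160 and 18 of 276 in ko/ko. The class needs 2 UMIs of the list, and interneurons of batch 1 were deeper, with medians of 2106 and 2275 UMIs against 1527 to 1639.

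The batch values were not alike in all kinds of cell. Among the 1629 interneurons with more bipolar than amacrine, horizontal and ganglion UMIs, 4.98% of 7092 genes differed between batches and 0 of the 5 tested members did (2 at an unadjusted p under 0.05, in edgeR, the only tool run), with 0.44 (SE 0.19) for Cabp1, -0.28 (SE 0.18) for Cabp5 and -0.37 (SE 0.17) for Scgn. In Prkca cells, 15.6% of 1849 genes and 4 of 5 tested members differed, among them Calb2 by 3.60 (SE 0.29, and 1.85, SE 0.36, adjusted p = 0.0023, without the cells led by ganglion list UMIs) and Cabp5 by -1.48 (SE 0.27), whereas in Grik1 cells 3.1% of 2385 genes and 0 of 3 tested members did (0 of them at an unadjusted p under 0.05). In the list classes 9.74% of 1201 genes differed in rod bipolar cells and 3.3% of 1878 in OFF cone bipolar cells, with 0 of the 3 tested members in each (1 and 0 at an unadjusted p under 0.05). In the amacrine list class, 16.8% of 990 genes differed, with Calb2 higher in batch 1 by 0.99 (SE 0.23, adjusted p = 0.00031) and Necab1 lower, at -1.38 (SE 0.33, adjusted p = 0.00059). The sum of ko/ko replicate 1, with 3 such cells, was left out of that fit. Without the cells that held as many ganglion or horizontal as amacrine UMIs, the Calb2 value was 0.18 (SE 0.24, adjusted p = 0.65) and the Necab1 value -1.32 (SE 0.32, adjusted p = 0.00081).

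**Figure D4:**
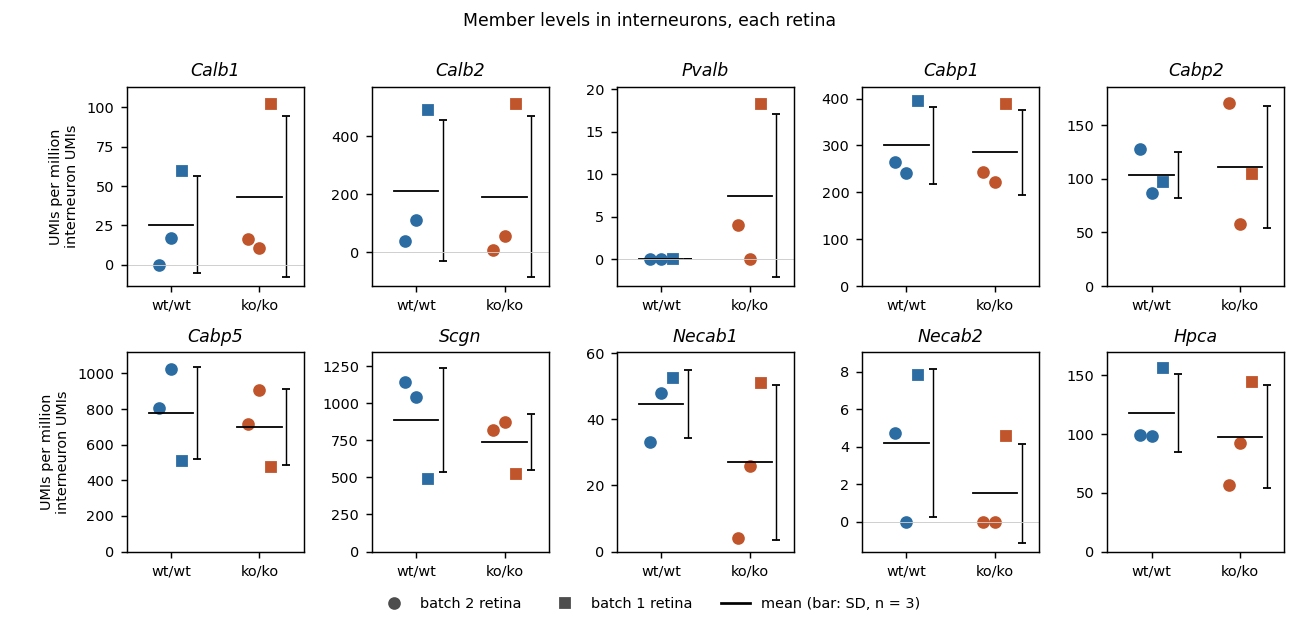
Level of each member in the interneurons of the 6 retinas, in CPM, by genotype, with squares for batch 1, circles for batch 2, the mean as a line and the SD (n = 3) as a bar beside it. For Calb2, the batch 1 retinas stand at 489 and 513 CPM and the other 4 at 8.14 to 111 CPM.

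The genotypes were compared in the same sums, to ask whether loss of Dram2 changed these markers of inner retinal neurons. In interneurons, 0 of the 7 tested members and 0.0% of the 7698 tested genes passed an adjusted p under 0.05 between ko/ko and wt/wt in edgeR. Limma-voom and DESeq2 also called 0 genes, and 86 genes had an unadjusted p under 0.05 in edgeR. The log2 differences (ko/ko minus wt/wt) were -0.09 (SE 0.99) for Calb2, -0.06 (SE 0.27) for Cabp1, 0.07 (SE 0.36) for Cabp2 and -0.14 (SE 0.31) for Cabp5. They were -0.25 (SE 0.33) for Scgn, -0.48 (SE 0.48) for Necab1 and -0.22 (SE 0.32) for Hpca. With errors of this size, in a fit without batch and with 3 retinas a group, changes of moderate size could be missed.

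With batch as a covariate, the error of Calb2 fell and its difference was -0.33 (SE 0.33), and those of Scgn and Cabp5 were -0.19 (SE 0.16) and -0.13 (SE 0.16). Same-numbered retinas shared a batch, and within these pairs Cabp1, Cabp5, Hpca and Necab1 were lower in ko/ko in all 3. The labels give no reason to pair by number within a batch. Paired across numbers where the batch allowed it, Cabp1 and Cabp5 were no longer lower in ko/ko in every pair, while Hpca and Necab1 still were. For Cabp1 and Cabp5 the order therefore rests on the numbering. The share of all genes that were lower in all 3 pairs was not counted. With the replicate number as a block, the differences were -0.07 (SE 0.17) for Cabp1, -0.13 (SE 0.16) for Cabp5, -0.24 (SE 0.21) for Hpca and -0.47 (SE 0.31) for Necab1, each with an adjusted p of 0.998 in edgeR. No gene passed for an interaction of genotype and batch, with 182 at an unadjusted p under 0.05 in edgeR, the only tool run for it. Calb1, Pvalb and Necab2 were below the filter. Without it, Calb1 gave 0.75 (SE 0.35, adjusted p = 0.95) and Necab2 -0.90 (SE 0.94).

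**Figure D5:**
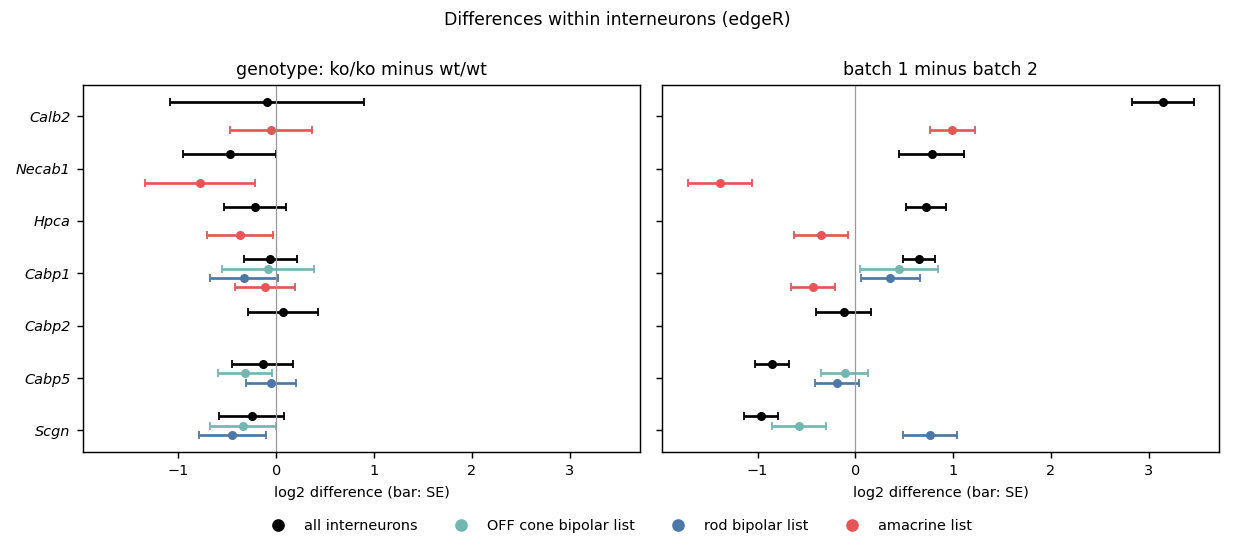
Log2 difference (x axis) of 7 members between ko/ko and wt/wt (left) and between batch 1 and batch 2 (right), in all interneurons and in the OFF cone bipolar, rod bipolar and amacrine list classes where the member was tested, with the standard error as a bar. The genotype values of all interneurons lie between -0.48 and 0.07, and the batch values run from -0.96 for Scgn to 3.15 for Calb2.

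The share of interneurons with each member, thinned to 1000 UMIs, was compared over the retinas by a two-sided exact permutation test, which cannot fall below p = 0.1 with 3 against 3. Scgn was detected in 48.1% ± 11.8 (SD, n = 3) of wt/wt and 38.8% ± 5.47 (SD, n = 3) of ko/ko interneurons, a difference of -9.32 percentage points (exact p = 0.3). It was -13.0 points within batch 2 and -1.89 points within batch 1. With 500 UMIs per cell it was -3.16 points (1.48 in batch 1), without wt/wt replicate 3 it was -16.0 points and without wt/wt replicate 1 -5.04 points. Necab1 gave 3.53% ± 0.693 and 1.72% ± 1.30 (exact p = 0.3), and Calb1 0.841% ± 1.09 and 1.98% ± 2.28 (exact p = 0.7). The Calb1 difference of 1.14 points became -0.10 without ko/ko replicate 3, and the Necab1 difference of -1.81 points became -0.46 with 500 UMIs per cell. After Benjamini-Hochberg adjustment over the 10 members every p was 1.0.

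In the other types, photoreceptors (13053 genes tested) and glia (4130) also gave 0.0% called in edgeR, and 109 and 51 genes there had an unadjusted p under 0.05, while DESeq2 and limma-voom called 0. Glial Necab2 differed by -0.0010 (SE 0.33) between the genotypes. In photoreceptors the differences were -0.37 (SE 0.68) for Cabp1, -0.42 (SE 0.98) for Cabp2, -0.39 (SE 0.26) for Cabp5 and -0.32 (SE 0.27) for Scgn. With 1 retina left out they ran from -0.92 to 0.36 for Cabp1 and from -0.98 to 1.06 for Cabp2, and limma-voom gave 0.58 for Cabp2. No member passed the filter in mesenchymal or RPE cells, where each had at most 10 UMIs.

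Within the marker classes, 0.0% of 1849 genes in Prkca cells and 0.0% of 2385 in Grik1 cells passed, while 15 and 45 had an unadjusted p under 0.05 and DESeq2 and limma-voom called 0. In Grik1 cells the differences were 0.03 for Cabp1, -0.19 for Cabp5 and -0.32 for Scgn, and in Prkca cells -0.57 for Cabp1, 0.50 for Cabp5, -0.61 for Scgn and -0.88 (SE 1.01) for Calb2. Without the filter, Calb1 was called in Grik1 cells (4.48, adjusted p = 0.015), which rested on 26 UMIs in 1 cell of ko/ko replicate 3, the horizontal list cell described above. Gad1 cells could not be tested, since 1 retina of each genotype had 10 or more. In the rod and OFF cone bipolar list classes 0.0% of 1201 and of 1878 genes passed (19 and 25 at an unadjusted p under 0.05). In the amacrine list class, 0.0% of 990 genes passed (17 at an unadjusted p under 0.05), with -0.06 (SE 0.42) for Calb2 and -0.78 (SE 0.57) for Necab1. With batch as a covariate 8 genes there (0.808%) passed, 0 of them members.

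The wider calcium machinery was followed by 2 lists. Of 24 other EF-hand proteins, 15 were tested in interneurons and 0 differed between genotypes, with a median log2 difference of 0.04 against -0.01 over all genes. Of 22 genes for calcium entry and removal, 17 were tested and 0 differed, with a median of -0.10. Among the list genes with the largest UMI counts, the difference was 0.044 (SE 0.24) for Calm2, which encodes calmodulin, and 0.14 (SE 0.24) for Guca1a, a guanylate cyclase activator. For calcium entry and removal, those with the largest counts were Atp2b1 (-0.13, SE 0.30), a plasma membrane calcium pump, Cacna2d3 and Cacna2d4. Between batches, Vsnl1 (1.89, SE 0.28), Kcnip3 (1.55, SE 0.31), Calm2 (0.51, SE 0.16), Cacnb4 (1.26, SE 0.31) and Atp2a2 (1.07, SE 0.22) were higher in batch 1 and Cacna2d4 (-1.06, SE 0.26) was lower.

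Across types, 13 other EF-hand genes were tested, of which 7 were higher in interneurons than in photoreceptors and 6 lower, against 33.1% and 32.9% of all tested genes. Among the higher were Kcnip4 (5.80, SE 0.27) and Ncald (5.36, SE 0.16), neuronal calcium sensors like Hpca. Among the lower were Rcvrn (-3.12, SE 0.15), Guca1a (-2.90, SE 0.13) and Cabp4 (-4.07, SE 0.17), which serve photoreceptors. Of 9 tested genes for calcium entry and removal, 5 were higher, among them Cacna2d3 (5.40, SE 0.16), and 2 lower, among them the photoreceptor exchanger gene Slc24a1 (-3.75, SE 0.15). Cacna2d3 was also higher in Prkca than in Grik1 cells (2.83, SE 0.19), and Kcnip4 lower (-2.20, SE 0.27).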

How the data were processed

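Single-cell suspensions of 6 retinas were profiled by the authors with the 10x 3′ v2 chemistry. The deposited values are raw UMI counts per gene and cell, which the authors made with Cell Ranger 3.1.0 on GRCm38, and cell types, which the authors assigned by clustering. Clusters rested on variable genes, whose names were not used here. Doublets were not called here, and generic cell names did not allow shared barcodes to be counted. How far the retinas were separate animals is not stated in the labels, so p-values measure the spread between these 6 libraries. The members and gene lists were chosen with earlier results of these data known.

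Counts were summed per retina and type or class (at least 10 cells) and tested with edgeR 4.0.16 in R 4.3.3 (quasi-likelihood, TMM factors, filterByExpr, Benjamini-Hochberg, threshold 0.05). Alternatives were limma-voom (limma 3.58.1), DESeq2 1.42.0, RLE factors, no filter, batch as a covariate, a replicate block, stricter cells (no fewer than 500 UMIs, no more than 10% of them mitochondrial), and each retina left out. The batch comparison, the marker-list tests and the fits in bipolar cells were added after seeing the data, as was leaving out cells led by ganglion list UMIs. Thinned shares used 1000 UMIs (500 as an alternative), Wilson intervals and exact permutation tests. Intervals and limits cover counting error only; a limit is 3 cells of the total. Named genes were the members, the class markers, the 3 genes of each list with the highest interneuron level, list genes that were called, and the 3 genes most correlated with a member (r at least 0.3, at least 20 cells); those called across types and classes are given by examples, and some list genes are not reported here. On simulated data the tests recovered 98.9% of planted 4-fold changes in interneurons and classes and 100% across types. Those counts had a fixed dispersion of 0.05 and no batch effect, with changes planted only in genes that pass the filter. The shares therefore do not tell how often a change in a member would be found in the real counts. Same-numbered retinas of the 2 genotypes deviated together (correlations 0.105, 0.340 and 0.577, with 0.328 between wt/wt replicate 1 and ko/ko replicate 2 of the same batch), and the replicate block called 0 genes in interneurons, photoreceptors, glia, Prkca and Grik1 cells. Annotation was from GENCODE M21 and promoter windows from RefSeq.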

Additional observations from a re-analysis of the deposited data

Results flagged for a closer look

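The 629 cells without a cell type entered no comparison. They held 7 UMIs of Calb2 and 5 UMIs of Scgn, above the 3 counts that a count of 0 allows.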

How the results depend on the processing

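Most log2 differences kept their direction: under alternatives, 618 kept direction and side of the threshold, 38 reversed, 26 lost and 4 gained a call. Of the share differences, 97 stayed within 1 SD (the larger group SD) of the main value, whatever their sign, and 3 moved further. Among the 97, the sign turned without ko/ko replicate 3 for Calb2 (0.18 to -3.98 points) and Cabp5 (-1.72 to 4.12). It also turned without wt/wt replicate 3 for Cabp1 (-0.060 to 2.95), and in other cases. The cause was not tested. Genotype calls rose without the filter to 1 in interneurons (Hist1h4d), 1 in photoreceptors (Hbb-bt), 1 in Grik1 cells (Calb1), 28 in mesenchymal and 3 in RPE cells. With batch as a covariate they were 21 in mesenchymal, 3 in RPE and 8 in amacrine list cells (0 members), with the replicate block 26 in mesenchymal and 4 in RPE cells, and with DESeq2 1 in RPE cells. The block changed no call of a member. Leaving out 1 retina gave 0 to 7 in mesenchymal (7 without ko/ko replicate 2) and 0 to 2 in RPE cells (2 without wt/wt replicate 3). Genes that differed across types were 15741 without the filter (5930 with it) and 4540 to 7180 with 1 retina left out. Across marker classes they were 596 in DESeq2 and 614 in wt/wt retinas only (922 in edgeR), and 641 to 916 with 1 retina left out. Genotype differences that reversed were Cabp1 in bipolar interneurons (0.027), Cabp2 in interneurons with limma-voom (-0.057, with batch -0.061) and in photoreceptors with limma-voom (0.58), glial Necab2 with DESeq2 (0.018) and RLE factors (0.0087), and Calb2 in Prkca cells with limma-voom (0.023). Leaving out 1 retina gave, in interneurons, -2.62 to 1.50 for Calb2, -0.35 to 0.20 for Cabp1, -0.27 to 0.37 for Cabp2, -0.38 to 0.12 for Cabp5 and -0.62 to 0.071 for Hpca; in photoreceptors -0.92 to 0.36 for Cabp1 and -0.98 to 1.06 for Cabp2; in glia -0.27 to 0.32 for Necab2; in Prkca cells -3.80 to 1.29 for Calb2, -0.040 to 0.92 for Cabp5 and -1.09 to 0.45 for Hpca; and in Grik1 cells -0.21 to 0.35 for Cabp1. Between classes, marker lists reversed Hpca (Prkca minus Grik1 -0.50, Prkca minus Gad1 -4.31) and Cabp1 (Prkca minus Gad1 -1.28, Grik1 minus Gad1 -1.49). Prkca minus Gad1 was -2.21 for Calb2 without the cells led by ganglion list UMIs, 0.23 for Calb2 in wt/wt retinas only and -0.0098 for Necab1 with limma-voom, and with 1 retina left out -1.25 to 0.20 for Calb2 and -0.23 to 0.80 for Necab1. Alternatives of the Gad1 genotype comparison were not run, since it had no test. Calb1, Pvalb and Necab2 had too few counts to be tested in interneurons with the filter.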
